A study of Mus musculus with 4 samples.

Results

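The nuclear-encoded genes of oxidative phosphorylation were described in sorted mouse embryonic stem (ES) cells. Members were the RefSeq symbols that begin with Nduf, Uqcr, Cox followed by a digit of 4 to 8, or Atp5, and the symbols Sdha, Sdhb, Sdhc and Sdhd. The rule left out pseudogene symbols and gave 92 of 19797 symbols in the RefSeq table. By role, 36 belong to complex I, 4 to complex II, 8 to complex III, 20 to complex IV and 15 to complex V, the ATP synthase. The other 9 symbols are not subunits, although the rule takes them in. They are 7 assembly factors of complex I (Ndufaf1 to Ndufaf7), Atp5s and Atp5sl. Ndufa4 and its paralog Ndufa4l2 carry a complex I name and were counted with complex IV, where the Ndufa4 protein is now placed.

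The line was MC1-ZE7, ES cells of the MC1 line (129S6/SvEvTac) in which the fluorescent protein Emerald (Em) reports Zscan4, a gene cluster transcribed in a changing subset of ES cells. Em+ cells, the high fraction of the sort, and Em- cells came from cultures grown without feeders on gelatin, in medium with serum and leukemia inhibitory factor. Both fractions carry the same reporter and received no other treatment per the labels. Total RNA of each fraction, depleted of ribosomal RNA, was sequenced in 2 stranded libraries. The labels do not say whether a fraction's libraries are separate cultures or sorts. The p-values therefore speak of the spread among these 4 libraries, and that spread may be technical. In sorted populations, fewer cells of a type and less RNA per cell cannot be told apart.

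Complexes I to IV form the respiratory chain of the inner mitochondrial membrane. Complexes I and II feed electrons from NADH and succinate to ubiquinone, complex III passes them to cytochrome c, and complex IV passes them to oxygen. Complexes I, III and IV pump protons, and the ATP synthase uses the proton gradient to make ATP. Most subunits are encoded in the nucleus and a few in the mitochondrial genome, whose transcripts were not analysed here. Naive mouse ES cells are known to use both glycolysis and respiration.

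The titles, on which the groups rest, and the description field name opposite fractions for all 4 samples. The summed level of the 6 Zscan4 symbols was 48.5 and 51.2 scaled FPKM in Em+ replicates 1 and 2, against 0.427 and 0.517 scaled FPKM in Em- replicates 1 and 2, in the direction of the titles. Scaled FPKM is the deposited FPKM (fragments per kilobase of transcript, relative to the library total), multiplied by 1 factor per library so that libraries compare on the scale of edgeR's TMM normalization. The factors were 0.979 and 1.15 in the Em+ libraries, against 0.948 and 0.945 in the Em- libraries, each in the order of replicates 1 and 2, as for all pairs of values given here. RefSeq counts were 17927765 and 16468218 in the Em+ libraries, against 18364978 and 18953217 in the Em- libraries. Em+ replicate 2 stood apart from the other libraries. RefSeq genes held 43.45% of its library total, against 49.01% in Em+ replicate 1 and 50.73 to 51.14% in the Em- libraries, and the ribosomal RNA precursor Rn45s took 7.95% of its RefSeq counts, against 3.93 to 4.33% in the other 3 libraries. The 9 ES cell markers summed to 1898.1 and 1638.6 scaled FPKM in Em+ libraries, against 1942.9 and 1910.7 in Em- libraries. Nanog alone of them was called, and it was higher in Em+ cells, with 128.9 and 114.6 against 85.3 and 89.5. Of the 8 fibroblast markers 4 were in the table, with sums of 31.6 and 27.9 in Em+ libraries against 30.8 and 28.4 in Em- libraries. Most of that was Vim, Thy1 passed the test, and the collagen genes Col1a1 and Col1a2 were below 0.31 in every library.

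Transcripts of the respiratory chain were abundant in both fractions, and the edgeR test gave 1 member higher in Em+ cells and none lower. The member was Cox7b2, a paralog of complex IV subunit 7B known mainly from testis. Of the 92 members 88 passed the filter of a mean FPKM of at least 1. The test was the quasi-likelihood one of edgeR at a Benjamini-Hochberg adjusted p under 0.05. Over all 12050 symbols tested it called 3.82% higher and 0.822% lower in Em+ cells. The members left out by the filter were Cox4i2, Cox6a2, Cox8b and Cox8c, and Ndufs5, with a mean of 1.02 FPKM, lay just inside it. At an unadjusted p under 0.05, 18 members were lower and 1 was higher, against 10.7% lower and 14.5% higher among all symbols tested. DESeq2 called 0 members in either direction, and limma on log2(FPKM + 1) called 1 higher and 0 lower. The share of all symbols called by these methods is not given here, so these counts do not set members apart from other symbols.

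Fitted log2 fold changes (Em+ over Em-) of the members lay mostly a little below 0. The estimate was below 0 for 78 of the 88 tested members (88.6%), against 49.3% of all symbols tested. The median was -0.15, against 0.003 over all symbols tested, and the middle 50% of the members lay between -0.21 and -0.078. Scaled FPKM of the groups did not overlap and was lower in Em+ cells for 56 members, and higher for 4. The same held for 29.6% and 29.8% of all symbols tested. None of the members with lower values passed the test, and the shift was larger in 1 of the Em+ libraries.

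Against the mean of the Em- libraries, the median member stood at -0.072 on the log2 scale in Em+ replicate 1 and at -0.23 in Em+ replicate 2. The Em- libraries themselves lay at 0.010 and -0.010. Without Em+ replicate 1, edgeR called 50 members lower and 1 higher, with 19.5% of all symbols lower and 21.9% higher in that fit, and the median was -0.23. Without Em+ replicate 2 it called 7 lower and 3 higher, with 6.9% of all symbols lower and 9.43% higher, and the median was -0.074. In both fits the lone Em+ library was assumed to vary like the Em- libraries, which lay close together and alone gave the spread, so these calls compare 1 Em+ library with the Em- libraries and not the fractions. Leaving out either Em- library gave 0 members lower and 0 higher.

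**Figure D1:**
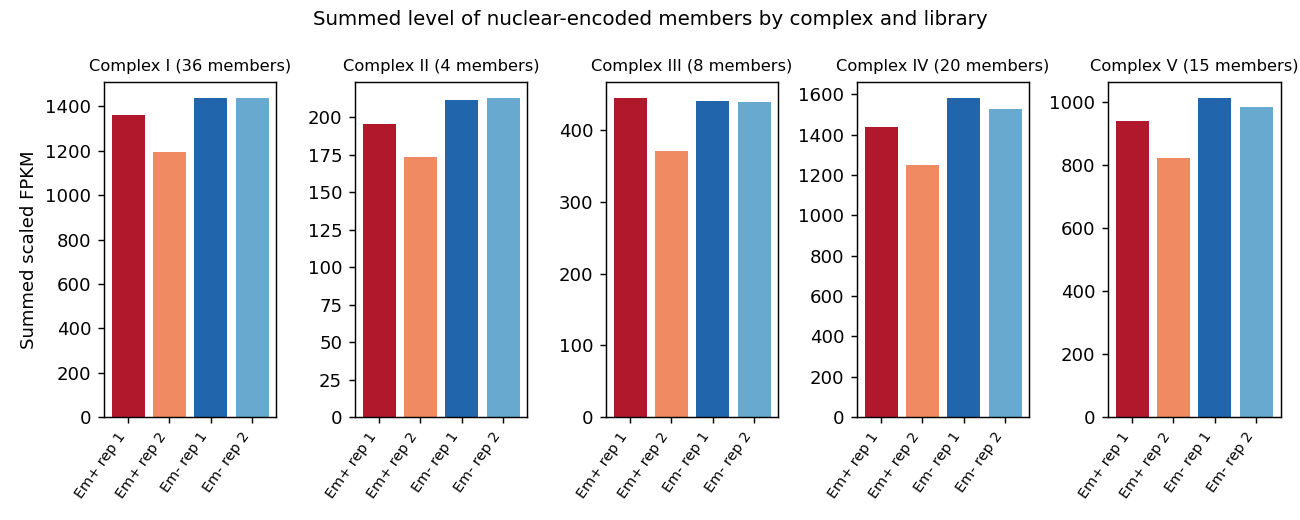
Summed scaled FPKM (linear axis from 0, a separate scale for each panel) of the members of complexes I to V in each library, Em+ replicates 1 and 2 in red and orange and Em- replicates 1 and 2 in dark and light blue. Em+ replicate 2 is the lowest library in all 5 panels, and Em+ replicate 1 lies below both Em- libraries in all of them but complex III, where it is the highest at 444.4.

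Members are mostly short transcripts, and transcript length moved with the same library. Their median length was 746.5 bases, against 2507 bases over all symbols tested. In the class up to 700 bases, which held 43 of the 88 tested members, the median log2 level of the members against the Em- mean was -0.071 in Em+ replicate 1 and -0.23 in Em+ replicate 2. All tested symbols of that length lay at -0.066 and -0.079, so the members stood apart from them in Em+ replicate 2 and hardly in Em+ replicate 1. Among all tested symbols of over 700 and up to 1500 bases, the median log2 level against the Em- mean was -0.043 in Em+ replicate 1 and -0.14 in Em+ replicate 2. For symbols over 3000 bases it was 0.028 in Em+ replicate 1 and 0.093 in Em+ replicate 2. Members of over 700 and up to 1500 bases lay at -0.082 in Em+ replicate 1 and -0.23 in Em+ replicate 2. Those of over 1500 and up to 3000 bases lay at -0.065 and -0.23. All tested symbols of over 1500 and up to 3000 bases had medians of -0.006 and -0.036. With offsets for transcript length in the fit, the median of the members was -0.054, 58 of 88 estimates were below 0, and the calls were 1 higher and 0 lower, with 5.38% of all symbols higher and 2.68% lower. The part of the Rn45s share of Em+ replicate 2 in these values was not tested.

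**Figure D2:**
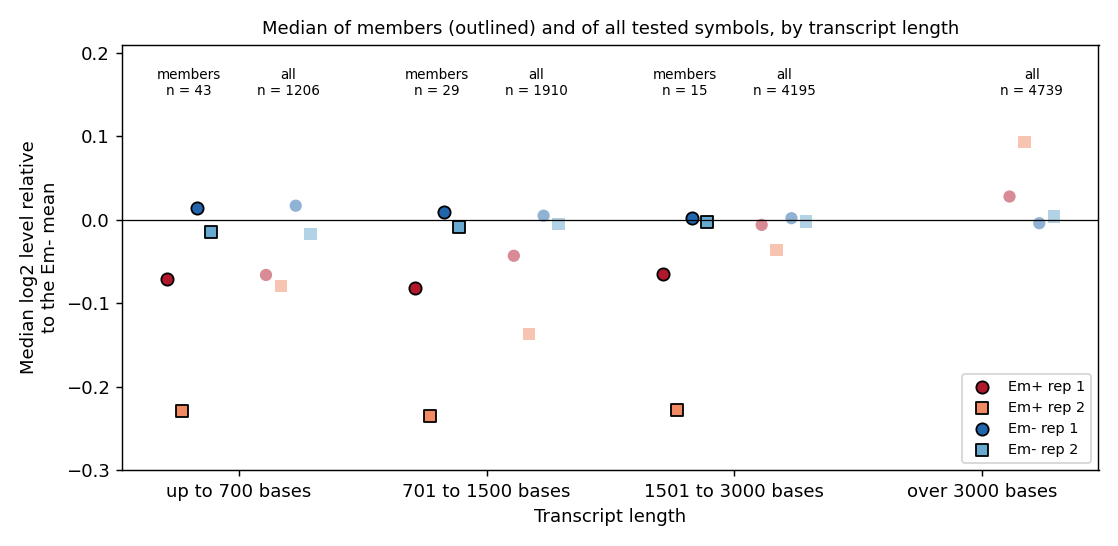
Median log2 level of each library relative to the Em- mean (vertical axis), for tested members (outlined) and all tested symbols (faded), in 4 classes of transcript length in bases. Members in the first 3 classes lie near -0.07 in Em+ replicate 1 and -0.23 in Em+ replicate 2, while the medians over all symbols run below 0 for short and above 0 for long transcripts, and the 1 member over 3000 bases, Ndufaf4, is not drawn.

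Complex I, the NADH dehydrogenase, held 36 members, all tested. None was called, 34 estimates were below 0, the median log2 fold change was -0.15, and 24 members were lower and 1 was higher in Em+ cells without overlap, against 29.6% lower and 29.8% higher among all symbols tested. With length offsets the median was -0.059, with 26 estimates below 0. Summed scaled FPKM was 1360.4 and 1195.8 in the Em+ libraries, against 1436.4 and 1436.2 in the Em- libraries, or 1278.1 ± 116.4 and 1436.3 ± 0.149 (SD, n = 2 each). The SD of the Em+ libraries was of the size of the difference between the means.

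The 7 core subunits, which bind NADH and carry the iron-sulfur clusters, all had estimates below 0, with a median of -0.16 and a range of -0.24 to -0.061. Of these 6 were lower in Em+ cells without overlap, against 29.6% of all symbols tested. The 29 accessory subunits, which surround the core, had a median of -0.15, with 27 below 0. Ndufb9, an accessory subunit of the membrane arm and the most abundant member of the complex by FPKM, had 2922 and 2147 counts in Em+ libraries, against 3130 and 3393 in Em- libraries. Ndufb8, another membrane-arm subunit, had 100.2 and 85.1 scaled FPKM in Em+ libraries, against 110.4 and 110.1 in Em- libraries. Both members were lower in both Em+ libraries, without overlap, and lowest in replicate 2. The log2 fold change was -0.23 for Ndufb9 (edgeR, adjusted p = 0.174) and -0.25 for Ndufb8 (adjusted p = 0.136).

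The highest estimate of complex I belonged to Ndufa12, an accessory subunit, and the lowest to Ndufs5. Ndufa12 had 2.53 and 2.97 scaled FPKM in Em+ libraries, against 2.21 and 1.62 in Em- libraries, from 53 and 55 counts against 47 and 36. The groups did not overlap, and the log2 fold change was 0.52 ± 0.23 (SE, adjusted p of edgeR = 0.212). Ndufs5, an accessory subunit, had 0.473 and 1.25 scaled FPKM in Em+ libraries, against 0.932 and 1.44 in Em- libraries. These values rest on 9 and 21 counts in Em+ libraries and 18 and 29 in Em- libraries, the groups overlap, and the log2 fold change was -0.50 ± 0.47 (SE, adjusted p of edgeR = 0.529). Without Em+ replicate 1 it was 0.069.

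Complex II, the succinate dehydrogenase of the tricarboxylic acid cycle, is encoded in the nucleus alone. All 4 subunits were lower in both Em+ libraries without overlap, against 29.6% of all symbols tested. None passed the test, and the median log2 fold change was -0.20. With length offsets the median was -0.13, with all 4 estimates below 0. Sdhb, the iron-sulfur subunit that passes electrons towards ubiquinone, lies on chromosome 4 at 140961271 to 140979192 (mm10, plus strand). It had 34.7 and 30.7 scaled FPKM in Em+ libraries, against 41.6 and 41.1 in Em- libraries. Both Em+ libraries lay below both Em- libraries, and the Em- libraries differed little. The log2 fold change was -0.34 ± 0.081 (SE, adjusted p of edgeR = 0.0613). Sdhb was called lower in 5 of 18 alternatives. Among them were the fit with no filter on low values (edgeR, adjusted p = 0.0416) and that with replicate number as a block (0.0144). The block with length offsets also called it (0.031), and length offsets alone did not (0.0513). With 1 library left out, Sdhb was called lower without Em+ replicate 1 (-0.43, edgeR adjusted p = 0.000187) and without Em+ replicate 2 (-0.25, 0.00835), where the Em- libraries alone gave the spread. It was not called without Em- replicate 1 (-0.33, 0.395) or without Em- replicate 2 (-0.35, 0.297).

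Sdha, the flavoprotein that oxidizes succinate, had 45.0 and 41.9 scaled FPKM in Em+ libraries, against 47.0 and 46.2 in Em- libraries, and a log2 fold change of -0.10 (edgeR, adjusted p = 0.377). The membrane anchor Sdhc had 60.2 and 53.4 scaled FPKM in Em+ libraries, against 63.2 and 64.4 in Em- libraries. Sdhd, the other anchor, had 55.8 and 47.7 scaled FPKM in Em+ libraries, against 60.0 and 61.1 in Em- libraries. In all 3 genes Em+ replicate 2 was the lowest library. The adjusted p of edgeR was 0.214 for Sdhc and 0.157 for Sdhd.

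Complex III, the cytochrome bc1 complex, had no called member. All 8 estimates were below 0 with a median of -0.10. Without overlap, 4 members were lower in Em+ cells, against 29.6% of all symbols tested. Summed scaled FPKM was 444.4 and 371.3 in Em+ libraries, against 440.5 and 439.7 in Em- libraries. The groups overlap, since Em+ replicate 1 was the highest and Em+ replicate 2 the lowest of the 4 libraries. The most abundant member, the small subunit Uqcr10, spread in the same way, with 152.0 and 115.9 scaled FPKM in Em+ libraries, against 137.9 and 136.6 in Em- libraries. The estimate was -0.034 ± 0.12 on the log2 scale (SE, adjusted p of edgeR = 0.882). Leaving out Em+ replicate 1 gave an estimate of -0.24 and leaving out Em+ replicate 2 gave 0.14, so its direction differed between the Em+ libraries. Uqcrc1, a large matrix-facing core protein of the complex, had the lowest estimate, with 60.5 and 51.8 scaled FPKM in Em+ libraries against 65.0 and 66.5 in Em- libraries. Its groups did not overlap, and the log2 fold change was -0.23 (edgeR, adjusted p = 0.156). With length offsets the median of complex III was 0.039, above 0, with 3 of 8 estimates below 0.

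**Figure D3:**
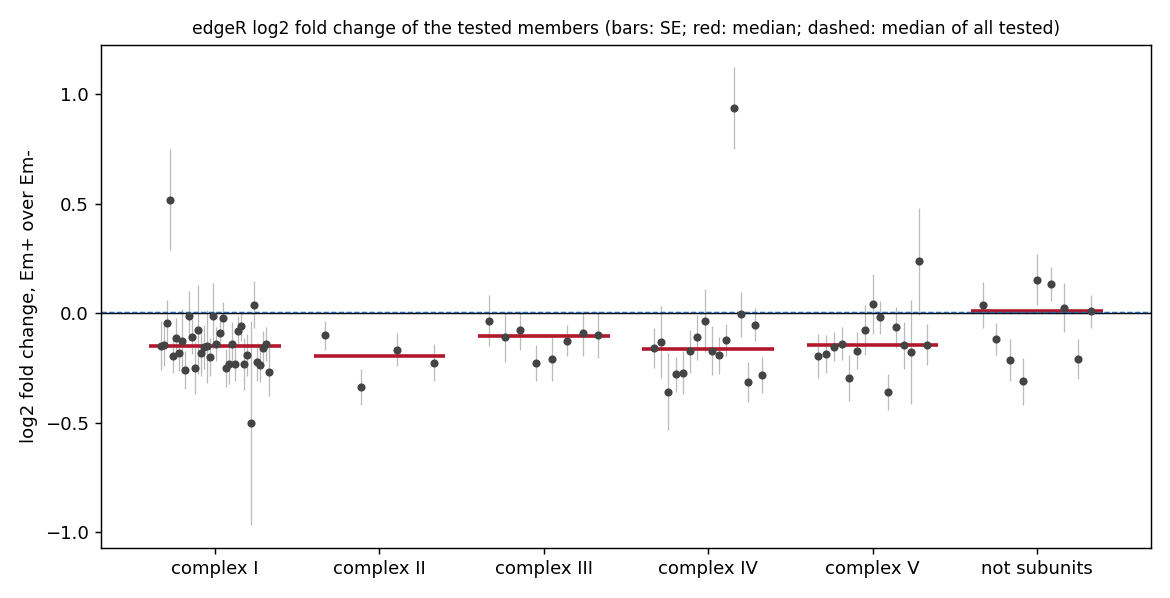
edgeR log2 fold changes (Em+ over Em-, vertical axis) of the 88 tested members by complex, with bars of 1 SE, red lines for the median of each complex and a dashed line for the median of all tested symbols. Nearly all subunits lie between -0.4 and 0, Cox7b2 stands at 0.94 in complex IV, and the 9 symbols that are not subunits centre at 0.008.

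Complex IV, the cytochrome c oxidase, has nuclear subunits that come in alternative isoforms, and it held the 1 called member. Of its 20 members 16 were tested, 15 estimates were below 0, the median was -0.16, and 11 were lower and 1 was higher without overlap, against 29.6% and 29.8% of all symbols tested. With length offsets the median was -0.036, with 11 estimates below 0, and the estimates of Cox4i1 and Cox6a1 were -0.037 and -0.14. Summed scaled FPKM was 1439.2 and 1250.1 in Em+ libraries, against 1580.8 and 1528.6 in Em- libraries.

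Cox7b2 lies on chromosome 5 at 71442823 to 71548205 (mm10, minus strand). It had 73 and 68 counts in Em+ libraries, against 41 and 40 in Em- libraries, where the 41 was computed from FPKM. Scaled FPKM was 3.60 and 3.80 in Em+ libraries, against 1.99 and 1.86 in Em- libraries, or 3.70 ± 0.14 and 1.93 ± 0.091 (SD, n = 2 each). Both Em+ libraries lay above both Em- libraries, with a gap larger than the spread within either group. The log2 fold change was 0.94 ± 0.18 (SE, adjusted p of edgeR = 0.0355). The counts were low and the call lay near the threshold. It was kept in 11 of 17 alternatives, in which the log2 fold change ran from 0.56 to 1.08 and the adjusted p from 0.000161 to 0.123. It was lost without Em- replicate 1 (adjusted p = 0.0634), without Em- replicate 2 (0.109), in DESeq2 (0.123) and, at 0.0509 to 0.053, in the other 3 annotation tables.

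Its paralog Cox7b, the subunit 7B made in most tissues, was far more abundant, with 49.0 and 44.5 scaled FPKM in Em+ libraries against 50.2 and 51.7 in Em- libraries. These groups did not overlap, Em+ cells were lower, and the log2 fold change was -0.12 (edgeR, adjusted p = 0.324). The difference between the paralogs' fold changes was not tested. No stretch of 50 bases of Cox7b2 occurs in a transcript of another GENCODE gene, and for Cox7b the share was 0.6%.

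The promoters of the called gene and its common paralog, and of 2 members with low estimates, are printed as examples. These chosen windows do not show how the motifs known from respiratory genes are spread over the members. RefSeq windows of 250 bases before to 50 bases after the start (GRCm38.p6, the release of which mm10 is the primary build) were found for 76 members, 82 windows in all. Each is given 5′ to 3′ on the strand of its gene, and capitals mark the NRF1 motif (its core GCATGCGC or the full form, the core with GC before it) and the ETS motif (CCGGAA, or TTCCGG on the other strand). The windows are Cox7b2 at chr5:71548156-71548455 (minus strand), Cox7b at chrX:106015450-106015749 (plus strand), Sdhb at chr4:140961021-140961320 (plus strand) and Cox6a1 at chr5:115348909-115349208 (minus strand).
Cox7b2: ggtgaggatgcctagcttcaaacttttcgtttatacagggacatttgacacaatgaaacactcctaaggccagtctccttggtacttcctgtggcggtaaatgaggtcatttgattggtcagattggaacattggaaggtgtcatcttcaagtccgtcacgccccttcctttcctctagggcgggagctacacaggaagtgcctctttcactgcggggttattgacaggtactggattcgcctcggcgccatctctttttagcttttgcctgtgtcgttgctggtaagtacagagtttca
Cox7b: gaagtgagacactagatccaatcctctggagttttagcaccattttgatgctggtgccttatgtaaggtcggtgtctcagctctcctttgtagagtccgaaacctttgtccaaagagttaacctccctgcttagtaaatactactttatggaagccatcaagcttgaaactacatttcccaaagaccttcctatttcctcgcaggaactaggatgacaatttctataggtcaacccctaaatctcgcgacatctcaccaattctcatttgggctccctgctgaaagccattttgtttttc
Sdhb: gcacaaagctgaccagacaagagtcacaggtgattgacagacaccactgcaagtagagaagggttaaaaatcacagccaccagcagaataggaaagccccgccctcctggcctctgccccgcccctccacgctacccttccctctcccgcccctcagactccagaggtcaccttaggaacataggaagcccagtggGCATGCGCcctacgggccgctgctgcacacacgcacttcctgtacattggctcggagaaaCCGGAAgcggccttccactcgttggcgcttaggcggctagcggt
Cox6a1: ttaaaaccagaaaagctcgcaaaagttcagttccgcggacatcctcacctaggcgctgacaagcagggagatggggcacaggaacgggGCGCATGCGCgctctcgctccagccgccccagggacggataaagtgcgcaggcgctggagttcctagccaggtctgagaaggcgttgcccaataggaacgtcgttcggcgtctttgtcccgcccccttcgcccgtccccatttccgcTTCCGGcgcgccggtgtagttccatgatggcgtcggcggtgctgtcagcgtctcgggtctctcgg

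The Cox7b2 and Cox7b windows hold 10 and 5 CpG dinucleotides and neither motif. The Sdhb window has 15 CpG with 1 NRF1 core and 1 ETS motif, and the Cox6a1 window has 32 CpG with a full NRF1 motif and 1 ETS motif. Of the members with the lowest estimate in each complex, Sdhb and Uqcrc1 hold the NRF1 core, and Ndufs5, Cox5b and Atp5h do not. On either strand, the full NRF1 motif was in 7 member windows (8.54%), against 2.12% of windows of tested genes and 0.971% of all windows. The NRF1 core, which the full motif contains, was in 14.6% of member windows, against 5.5% of windows of tested genes. The YY1 motif AAGATGGC was also in 14.6%, against 4.63%. The ETS motif was in 34.1%, against 28.5%, and CCAAT was in 42.7%, against 38.7%. Members with a full NRF1 motif included Cox6a1, Uqcrc1, Ndufa11, Atp5g2, Atp5k, Ndufaf4 and Ndufaf5, whose log2 fold changes ran on both sides of 0. These are matches of letters only, and binding was not measured.

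The other paralog sets of complex IV showed the same order of isoforms in both fractions. Cox4i1, the common form of subunit 4 and the most abundant member of all, had 473.9 and 404.5 scaled FPKM in Em+ libraries, against 494.0 and 487.5 in Em- libraries, with a log2 fold change of -0.16 (edgeR, adjusted p = 0.312). Cox4i2, the lung form, had 1.29 and 0.50 in Em+ libraries, against 0.689 and 0.870 in Em- libraries, and was not tested. Its groups overlap, with both extremes in Em+ cells. Cox6a1, the common form of subunit 6A, had 173.3 and 149.9 scaled FPKM in Em+ libraries, against 197.6 and 195.0 in Em- libraries. Both Em+ libraries were lower, at a log2 fold change of -0.28 (adjusted p of edgeR = 0.0955, SE 0.081). Its muscle form Cox6a2 had 3 and 2 counts in Em+ libraries, against 0 and 1 in Em- libraries.

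Subunit 6B was the one set where a form known from testis had a high summed level. Cox6b2, that form, had 63.8 and 53.7 scaled FPKM in Em+ libraries, against 68.6 and 64.2 in Em- libraries, while the common form Cox6b1 had 157.9 and 129.2 in Em+ libraries, against 168.6 and 178.6 in Em- libraries. Both were lower in both Em+ libraries, and neither passed the test. Log2 fold changes were -0.17 for Cox6b2 (edgeR, adjusted p = 0.307) and -0.27 for Cox6b1 (adjusted p = 0.148). The level of Cox6b2 was added up over 6 RefSeq transcripts and that of Cox6b1 came from 1. Whether a read was counted in several transcripts is not known, so the level of Cox6b2 may be too high beside Cox6b1.

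Of the subunit 7A genes, Cox7a2l, a factor of respiratory supercomplexes, had 72.5 and 61.7 scaled FPKM in Em+ libraries, against 76.9 and 76.5 in Em- libraries. Cox7a2, the common subunit, had 43.6 and 35.4 in Em+ libraries, against 42.7 and 46.3 in Em- libraries, and Cox7a1, the heart and muscle form, had 15.6 and 12.4 in Em+ libraries, against 14.9 and 13.8 in Em- libraries. Only Cox7a2l of these 3 did not overlap between the groups, and its log2 fold change was -0.19 (edgeR, adjusted p = 0.209). The 6 heart and skeletal muscle markers summed to 1.60 and 1.54 scaled FPKM in Em+ libraries, against 1.44 and 0.883 in Em- libraries, with no marker above 0.89 in any library.

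Cox8a, the common form of subunit 8, had 260.7 and 231.7 scaled FPKM in Em+ libraries, against 327.3 and 285.6 in Em- libraries, with a log2 fold change of -0.31 (adjusted p of edgeR = 0.0974, SE 0.092). The groups did not overlap, but each group's libraries also differed from each other. Cox8b, the muscle form, had 8 and 12 counts in Em+ libraries, against 6 and 15 in Em- libraries, and Cox8c, a testis form, had 9 and 6 in Em+ libraries, against 5 and 4 in Em- libraries. Both genes fell below the filter of a mean FPKM of at least 1 and were not tested.

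Ndufa4, a subunit of complex IV, had 48.7 and 47.8 scaled FPKM in Em+ libraries, against 51.3 and 48.8 in Em- libraries, with a log2 fold change of -0.052 (edgeR, adjusted p = 0.691). Ndufa4l2, known as a target of the hypoxia response, had 18.5 and 17.1 scaled FPKM in Em+ libraries, against 22.2 and 21.1 in Em- libraries. Its groups did not overlap, and the log2 fold change was -0.28 ± 0.081 (SE, adjusted p of edgeR = 0.0925). Cox5b, the zinc-binding subunit 5B, had the lowest estimate of the complex, with 2.87 and 3.57 scaled FPKM in Em+ libraries, against 4.17 and 4.05 in Em- libraries. It was lower without overlap at a log2 fold change of -0.36 (adjusted p of edgeR = 0.25, SE 0.18). Cox5a, which encodes subunit 5A, had 9.98 and 12.1 in Em+ libraries, against 13.8 and 10.4 in Em- libraries, with overlapping groups and a log2 fold change of -0.13 (edgeR, adjusted p = 0.637).

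**Figure D4:**
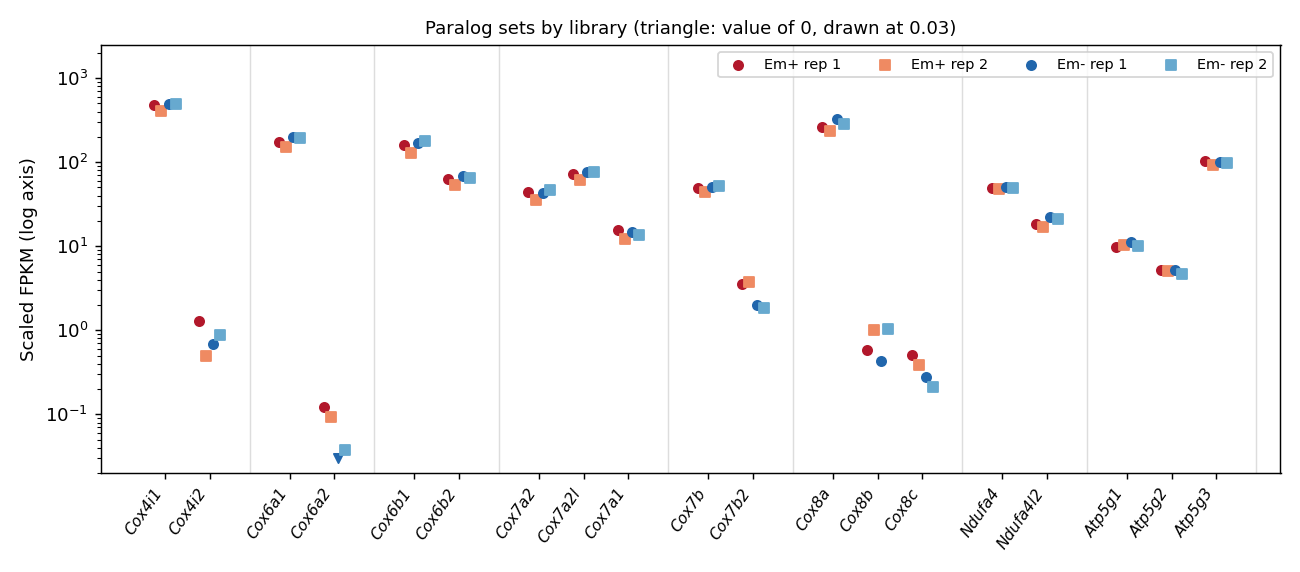
Scaled FPKM (log axis) of 8 paralog sets in each library, Em+ replicates 1 and 2 in red and orange and Em- replicates 1 and 2 in dark and light blue, with a value of 0 drawn as a triangle at 0.03. Of the tested genes shown, Cox7b2 alone has both Em+ libraries (3.60 and 3.80) above both Em- libraries (1.99 and 1.86), and in each set the most abundant paralog is the same in all 4 libraries.

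Complex V had 15 members, all tested, with none called, 13 estimates below 0 and a median of -0.15. With length offsets the median was -0.041, with 10 estimates below 0. Summed scaled FPKM was 939.2 and 821.9 in Em+ libraries, against 1012.1 and 984.0 in Em- libraries. The 5 genes of F1, the catalytic head, were all lower without overlap, against 29.6% of all symbols tested. Their median was -0.18 and their range -0.29 to -0.14. Of the 10 genes of Fo, the membrane part, and the stalk that joins the parts, 8 had estimates below 0 and the median was -0.11. Without overlap, 4 of these 10 were lower in Em+ cells, against the same 29.6%.

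Atp5a1, which encodes the F1 alpha subunit, had 278.7 and 239.7 scaled FPKM in Em+ libraries, against 295.4 and 298.3 in Em- libraries, with a log2 fold change of -0.20 (edgeR, adjusted p = 0.271). Atp5e, which encodes F1 epsilon, had 163.1 and 129.6 scaled FPKM in Em+ libraries, against 179.8 and 179.6 in Em- libraries. Both genes were lower in both Em+ libraries, and the log2 fold change of Atp5e was -0.29 ± 0.10 (SE, adjusted p of edgeR = 0.145). Atp5h, which encodes stalk subunit d, lies on chromosome 11 at 115415697 to 115419919 (mm10, minus strand) and came nearest to the threshold of all members with estimates below 0. It had 28.4 and 27.1 scaled FPKM in Em+ libraries, against 37.0 and 34.3 in Em- libraries. The libraries of each group lay close together and the groups did not overlap, at a log2 fold change of -0.36 (adjusted p of edgeR = 0.0519, SE 0.081). Other genes share 50.5% of its 50-base stretches, so its count is uncertain.

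The ring of c subunits, through which protons pass, is encoded by 3 genes for the same mature protein. Atp5g3 had 103.8 and 92.1 scaled FPKM in Em+ libraries, against 100.2 and 98.2 in Em- libraries. Atp5g1 had 9.72 and 10.4 in Em+ libraries, against 11.3 and 9.99 in Em- libraries, and Atp5g2 had 5.17 and 5.06 in Em+ libraries, against 5.22 and 4.73 in Em- libraries. All 3 overlapped between the groups, and their log2 fold changes were -0.018, -0.078 and 0.041 for Atp5g3, Atp5g1 and Atp5g2. Atp5l, which encodes the membrane subunit g, had the highest estimate of the complex, with 2.82 and 4.43 scaled FPKM in Em+ libraries, against 2.88 and 3.21 in Em- libraries. The Em+ libraries lay on both sides of the Em- libraries, and the log2 fold change was 0.24 ± 0.24 (SE, adjusted p of edgeR = 0.572).

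The 9 symbols that are not subunits had a median log2 fold change of 0.008, with 4 of 9 below 0, against -0.15 and 74 of 79 for the subunits alone. No test was made of the difference between these sets. Their median length was 1485 bases, against 679 bases for the subunits. Their sum was 85.5 and 80.9 scaled FPKM in Em+ libraries, against 91.0 and 89.8 in Em- libraries.

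Members differ in how much sequence they share with other genes. Of 91 members with a GENCODE M21 transcript, 31 had at least 10% of their 50-base stretches in transcripts of other genes and 44 had none. The median level was 15.5 FPKM in the 31 members, against 36.7 FPKM in the rest. Of the 14 members with a mean under 5 FPKM, 5 were tissue isoforms, and 7 of the other 9 were in the shared class. Examples are Atp5g2 with 87.4% shared, Atp5l with 84.8%, Ndufa12 with 53.8% and Ndufs5 with 41.2%. How the authors treated reads that match several places is not given in the sources used here, so the low levels of these genes are uncertain. The median log2 fold change was -0.14 in the 31 members and -0.15 in the 56 other tested members. For 29 members, exons overlap those of a gene on the opposite strand.

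The Ensembl table gave a total count equal to the RefSeq one within 10% for 49 of the 92 members. The ratio of Ensembl to RefSeq counts ran from 0.408 for Ndufs7 to 4.27 for Ndufa7. Atp5b, the catalytic beta subunit of F1, had 8856 RefSeq and 34288 Ensembl counts in Em+ replicate 1, each added up over its transcripts. Its largest single Ensembl transcript had 10504 counts in that library. The order of summed levels between members thus depends on the table and on the adding up of its transcripts. The median log2 fold change was -0.155, -0.159 and -0.165 in the known-gene, Ensembl and ENCODE tables. Single members turned sign between tables, such as Ndufab1 at -0.076 in RefSeq and 0.20 in Ensembl, and Ndufaf4 at 0.13 in RefSeq and -0.015 in Ensembl, none of them called.

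**Figure D5:**
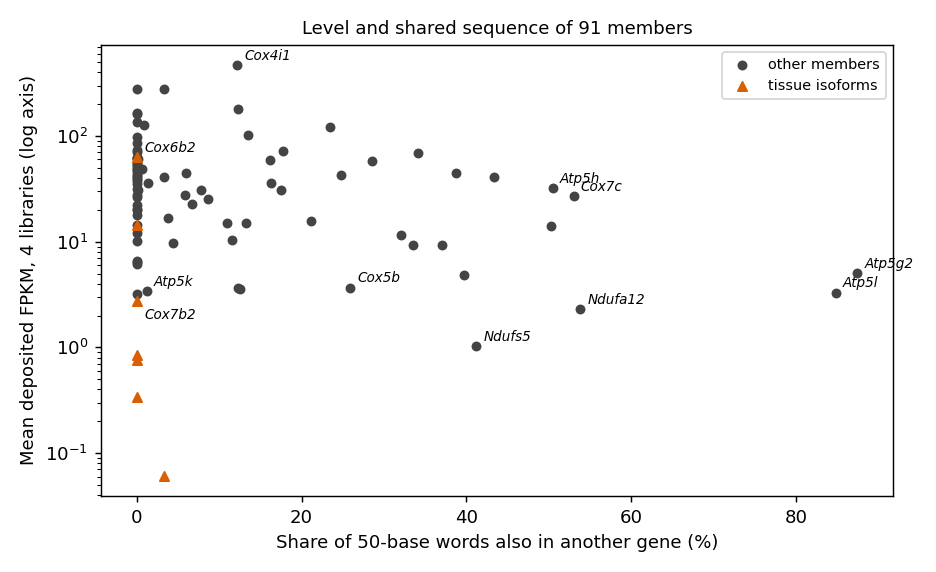
Mean deposited FPKM over the 4 libraries (log axis) against the share of 50-base stretches that also occur in transcripts of other genes (%), for 91 members. Cox4i1 is the highest point, and Atp5g2 and Atp5l combine low FPKM with shares of 87.4% and 84.8%. Tissue isoforms (triangles) have shares near 0. Of these, 5 lie under 5 FPKM, while Cox7a1 lies at 14.2 and Cox6b2 at 63.0.

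Genes around the chain were read from 10 companion lists of 93 symbols, of which 81 were tested, with 2 called higher and 0 lower, against 3.82% higher and 0.822% lower among all symbols tested. The share called was thus no larger than over all symbols. Cycs, the cytochrome c that shuttles electrons between complexes III and IV, had 582 and 492 counts in Em+ libraries, against 186 and 206 in Em- libraries. Scaled FPKM was 5.09 and 4.88 in Em+ libraries, against 1.60 and 1.70 in Em- libraries. The libraries of each group lay close together, and the log2 fold change was 1.59 ± 0.10 (SE, adjusted p of edgeR = 8.87e-05). Its transcript shares 28.5% of its 50-base stretches with 76 other genes, 10 of them annotated pseudogenes, and the source of the added reads was not tested. Slc25a31, an ADP/ATP carrier known mainly from male germ cells, had 371 and 345 counts in Em+ libraries, against 158 and 177 in Em- libraries. It shares no 50-base stretch, and rose by 1.24 ± 0.11 on the log2 scale (SE, adjusted p of edgeR = 0.000778). Both genes were called in all 17 alternatives that tested them, at log2 fold changes of 1.05 to 1.68 for Cycs and 0.81 to 1.29 for Slc25a31.

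No other listed gene passed. Cyc1, the cytochrome c1 subunit of complex III whose symbol the rule does not match, had 67.1 and 60.4 scaled FPKM in Em+ libraries, against 72.9 and 70.9 in Em- libraries, and a log2 fold change of -0.17 (edgeR, adjusted p = 0.191). In the 7 other assembly genes of complex I the median log2 fold change was 0.041, with 2 below 0. In the 20 tested assembly genes of complex IV it was -0.086, with 15 estimates below 0. In the 16 genes of the tricarboxylic acid cycle it was -0.078, with 12 below 0. The 7 tested regulators of mitochondrial genes had a median of 0.011, with 3 below 0, and the 13 genes of mitochondrial DNA transcription and replication had 0.053, with 4 below 0. Of the regulators, Nrf1, a transcription factor known to act on respiratory genes, had 9.21 and 9.19 scaled FPKM in Em+ libraries, against 8.05 and 8.18 in Em- libraries (log2 fold change 0.18, edgeR, adjusted p = 0.176).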

How the data were processed

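Per the file headers, the authors deposited, for each of 4 libraries and 4 transcript annotations (RefSeq, known-gene, Ensembl and ENCODE), raw counts and FPKM for each transcript. The submitters' processing notes name Bowtie2 and mm10. Not given in the sources used here are the counting program, the treatment of reads with several matches and whether strand was used. The RefSeq count column of Em- replicate 1 holds only 0, so its counts were computed from the deposited FPKM, the length and the library total. The same calculation returned the exact count for 99.93 to 99.95% of RefSeq transcripts in the other libraries.

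For each symbol, the values of its transcripts were added up. Symbols with a mean FPKM of at least 1 were tested two-sided by the quasi-likelihood method of edgeR 4.0.16 (TMM, R 4.3.3) without covariates, and p-values were adjusted by Benjamini-Hochberg over all of them, with a threshold of 0.05. Alternatives used DESeq2 1.42.0, limma 3.58.1 with pseudocounts of 1 and 0.1, other filters, annotations and scalings, leaving out each library, a replicate block and lowess offsets for transcript length. Counting error alone limits genes with few counts.

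The members, lists and tests were chosen with earlier results of these data known. Named members are those called, the 2 with the highest mean FPKM and the tested ones with the highest and lowest log2 fold change in each complex, the 4 Sdh genes, 9 paralog sets and called members of companion lists. Further members are named where a count of 7 or fewer is spelled out, or as examples chosen after their values were seen. The share of 50-base stretches was computed on GENCODE M21 transcripts, and promoter windows came from RefSeq.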

Additional observations from a re-analysis of the deposited data

How the results depend on the processing

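The count of 0 members called lower became 1 with library totals as the only scaling (Atp5h) and 2 with no filter on low values (Atp5h and Sdhb). It became 7 under the replicate block, and 1 under the block with length offsets (Sdhb). The share of all symbols called in these fits, and in those without an Em- library, is not given here. These counts therefore do not show whether members differ from other symbols. Leaving out 1 library gave 0 to 50 members lower and 0 to 3 higher, with all calls in the fits with 1 Em+ library, where the Em- libraries alone gave the spread. The count of 1 higher, Cox7b2, became 0 in DESeq2, in the known-gene, Ensembl and ENCODE tables, and with a mean FPKM of at least 5, a filter that leaves Cox7b2 out. The median log2 fold change of the members ran from -0.23 to -0.074 with 1 library left out. It was -0.30 in limma on log2(FPKM + 1) and -0.31 with a pseudocount of 0.1, both on unscaled FPKM, where the median of all symbols was -0.14 and -0.16. It was -0.054 with transcript length offsets and -0.055 with these and the replicate block, against -0.148 under the block alone. The labels do not say whether libraries with the same replicate number belong together. The correlation of deviations between Em+ and Em- replicate 1 was 0.003. With 2 libraries in each group, this 1 value cannot tell whether they do, and the block result is a description.

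Some estimates changed sign, most of them near 0, but also Ndufs5 and Atp5l, which rest on few counts. With length offsets, and with offsets and the block, the values were 0.034 and 0.034 for Atp5g1, 0.106 and 0.105 for Atp5g3, 0.087 and 0.081 for Cox7a1, 0.094 and 0.093 for Ndufa4, and 0.106 and 0.100 for Uqcr10. With a mean FPKM of at least 5 they were 0.019 for Atp5g3, 0.003 for Cox7a1 and 0.002 for Uqcr10. Atp5g2 was -0.018 with no filter, -0.102 and -0.120 in limma with pseudocounts of 1 and 0.1, -0.020 in the Ensembl table and -0.026 in the ENCODE table. With 1 library left out, the values ran from -0.166 to 0.010 for Atp5g1, -0.029 to 0.110 for Atp5g2, -0.107 to 0.063 for Atp5g3, -0.114 to 0.541 for Atp5l, -0.322 to 0.080 for Cox5a, -0.215 to 0.118 for Cox7a1, -1.323 to 0.069 for Ndufs5 and -0.244 to 0.145 for Uqcr10. Apart from the length offsets, fewer symbols tested and fewer libraries, the cause was not tested. Depth limits Cox7b2, Ndufa12 and Ndufs5, whose counts are 73 or fewer in every library.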
